A study of Homo sapiens with 16 samples.

Results

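The comparison described here set NT2/D1 cells transfected with the MIR9-2-5p mimic against TCam-2 cells transfected with the same mimic. It used 8 of the 16 RNA-seq libraries of the series, 4 from each line, and every gene of the count table. The members were taken by their labels alone. The question was which differences between the lines remained, vanished or appeared once both carried the mimic, and for this the same line difference was measured in the other 8 libraries, 4 per line, which had received a scrambled control. NT2/D1 (NTERA-2) is an embryonal carcinoma (EC) line and TCam-2 is a seminoma line, both from human testicular germ cell tumours. All cells were exposed to 25 nM of mimic or control for 3 days. NT2/D1 cells were grown in DMEM and TCam-2 cells in RPMI, so line and medium cannot be told apart in any value below. Each tumour type is represented by 1 established line. The 4 libraries of a group are numbered as replicates in the labels and called biological replicates in the study's methods, and p-values measure the spread between them.

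EC and seminoma cells are both germ cell tumour cells that keep a pluripotency programme with OCT4 (POU5F1) and NANOG. EC resembles the primed embryonic state and relies on SOX2, whereas seminoma resembles primordial germ cells and carries SOX17, TFAP2C and PRDM1 in place of SOX2. A miRNA guides a silencing complex to messenger RNAs that pair with its seed, and miR-9 is best known from the nervous system, where it acts on neural progenitors.

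The mature miR-9-5p that the mimic supplies is shown because its seed defines the sites counted below. RefSeq gives the same mature sequence at 3 loci (GRCh38.p14): MIR9-1 at chr1:156420392-156420414 on the minus strand, MIR9-2 at chr5:88666902-88666924 on the minus strand and MIR9-3 at chr15:89368032-89368054 on the plus strand. Capitals mark the seed, bases 2 to 8.
hsa-miR-9-5p: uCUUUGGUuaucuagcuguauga

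The full match to this seed in a messenger RNA, with an A opposite the first base, is ACCAAAGA, read on the strand of the transcript. It was present in the 3′UTR of 713 of 14972 tested protein-coding genes with a 3′UTR in GENCODE 44 (4.76%). Sites are shown for some of the genes of the sections below whose line difference changed, each with 11 bases on either side and the match in capitals (GRCh38, 3′UTR of the canonical transcript). The selection is not complete, and GREM1, for example, also holds a site. The presence of these letters is a description and not evidence of binding.
TRIM71, chr3:32893283-32893312, plus strand: tgtaactcggtACCAAAGAatgaaaattta
TRIM71, chr3:32894178-32894207, plus strand: accctttaaacACCAAAGAcaactggtttt
ONECUT2, the first of 8 sites, chr18:57477985-57478014, plus strand: aaacacagcacACCAAAGAagcagaatact
VRTN, chr14:74359967-74359996, plus strand: aacgtttgaaaACCAAAGAaataaagtgat
HMGA2, chr12:65963790-65963819, plus strand: ctgtttagaacACCAAAGAtaaggactaga
INHBA, chr7:41688486-41688515, minus strand: tagacacatacACCAAAGAcatttgtgtga

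Assigned counts ranged from 18374393 to 22427162 per NT2/D1 mimic library and from 14167738 to 19367272 per TCam-2 mimic library, and 19576 genes were tested. Levels are given as CPM, the count of a gene relative to the total of its library after scaling by TMM factors. The markers of the labelled cell types were present in their lines: 8 seminoma and primordial germ cell markers summed to 1723 to 1906 CPM in TCam-2 with the mimic and to 134 to 139 CPM in NT2/D1, where SOX17 and TCL1A had no count. The 8 embryonal carcinoma markers summed to 563 to 650 CPM in NT2/D1 and 105 to 121 CPM in TCam-2. Of markers for other cells, 6 blood and immune genes summed to at most 2.08 CPM, with PTPRC at 0.0135 CPM in NT2/D1 and 0.0170 CPM in TCam-2, and 4 spermatogenic genes to at most 0.594 CPM, with PRM1 and PRM2 at 0. The 8 fibroblast markers summed to 604 to 692 CPM in NT2/D1 and 191 to 211 CPM in TCam-2, with DCN at 0 in both, and the 4 endothelial markers to 68.4 to 77.3 CPM and 23.8 to 26.2 CPM. The 5 Sertoli and Leydig markers summed to 35.0 to 45.2 CPM in NT2/D1 against 5.17 to 5.78 CPM in TCam-2, with AMH, at 30.2 and 4.36 CPM, the main contributor. Mitochondrial transcripts took up 4.39% ± 0.181 (SD, n = 4) of the counts in NT2/D1 and 1.97% ± 0.146 in TCam-2 with the mimic, and cytosolic ribosomal protein genes 5.55% ± 0.208 and 8.18% ± 0.273. Both differences had a two-sided exact permutation p of 0.0286, the smallest that 4 against 4 allows. The part of these shares in the gene differences was not tested. In bulk samples, fewer cells of a type and less RNA per cell cannot be told apart.

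The lines remained far apart with the mimic. In an edgeR quasi-likelihood fit over all 16 libraries, 7948 genes (40.6% of those tested) were higher in NT2/D1 and 7550 (38.6%) higher in TCam-2 at a Benjamini-Hochberg adjusted p under 0.05. The counts of each gene list below are to be read beside these shares. With the scrambled control the numbers were 7660 (39.1%) and 7499 (38.3%). A difference that passed this test and was at least 4-fold is called marked below. With the mimic, 2765 genes (14.1%) were marked with NT2/D1 higher, and 2336 (11.9%) with TCam-2 higher. With the control these were 2604 (13.3%) and 2102 (10.7%). The median absolute log2 fold change over all tested genes was 0.96 with the mimic and 0.90 with the control. Between single libraries of the lines the same median was 0.81 to 0.86 over the 16 mimic pairs and 0.72 to 0.81 over the 16 control pairs, computed on log2(CPM + 0.5), so the ranges overlapped only at their edges. Of the 5101 genes marked with the mimic, 838 were below 1 CPM in both groups and 579 had no count in 1 line.

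Most marked differences held under both transfections. A total of 3425 genes were marked in the same direction with mimic and with control, which is 67.1% of the genes marked with the mimic and 72.8% of those marked with the control. The change of the line difference itself (the difference with the mimic minus the difference with the control) was tested in the same fit. It passed toward NT2/D1 in 5464 genes (27.9%) and toward TCam-2 in 4950 (25.3%). This balance depended on the processing. Under upper-quartile scaling 4686 genes changed toward NT2/D1 and 5872 toward TCam-2. At a mean count of at least 100 the numbers were 3969 and 3978. Change counts of the gene lists below are to be read beside the shares of 27.9% and 25.3%. For 2333 of the genes that remained (68.1%) no change was called, while the difference became wider in 660 (19.3%) and narrower in 432 (12.6%). A marked difference was said to have vanished when it fell under 2-fold with the mimic and its change passed the test. This held for 480 genes (2.45% of those tested). The mirror case, a difference that appeared, held for 627 genes (3.20%). A further 404 (2.06%) weakened to between 2- and 4-fold, 600 (3.06%) strengthened from between 2- and 4-fold to a marked difference, and 24 reversed between marked differences of opposite direction. For 719 genes marked under 1 transfection only, the change did not pass and the class was left undecided, and 79 fell outside these definitions.

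**Figure D1:**
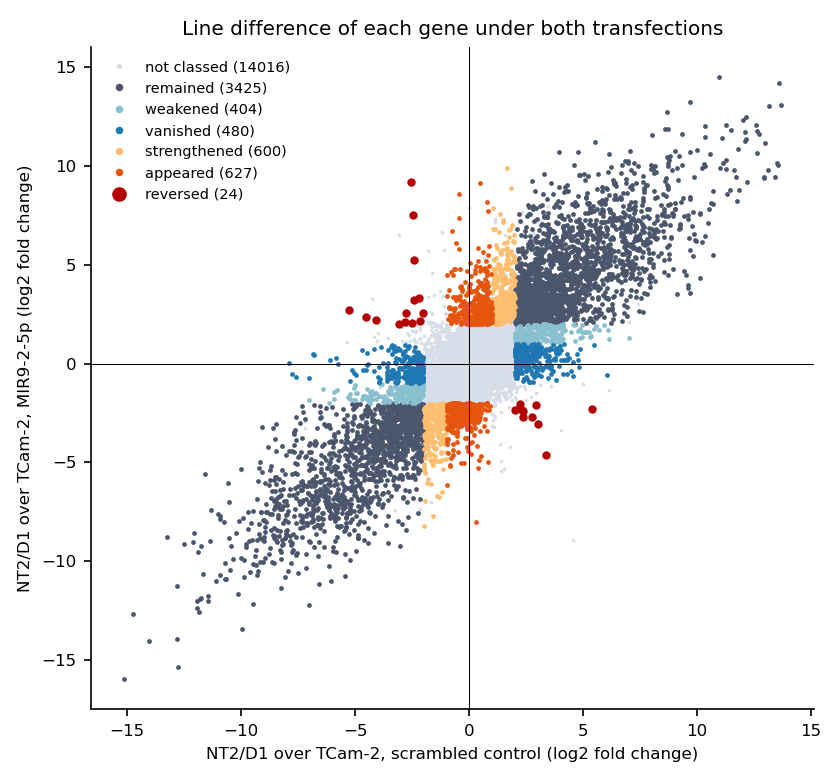
Each point is 1 of the 19576 tested genes, with the log2 fold change of NT2/D1 over TCam-2 after the scrambled control on the x axis and after MIR9-2-5p on the y axis, coloured by class. Most classed genes lie along the diagonal (3425 remained), the 480 vanished genes lie along the x axis, the 627 that appeared lie along the y axis, and the 24 reversed genes lie in the other 2 quadrants.

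**Figure D2:**
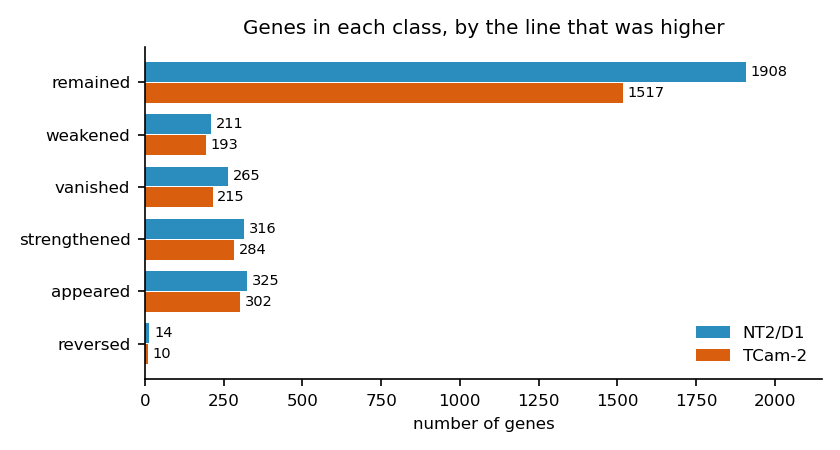
Number of genes in each class, split by the line in which the gene was higher (with the control for weakened and vanished genes, with the mimic for all others). NT2/D1 and TCam-2 contributed 1908 and 1517 genes that remained, 265 and 215 that vanished, and 325 and 302 that appeared.

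The 2 lines kept their opposite SOX factors. SOX2, the pluripotency factor of EC, was at 176, 220, 157 and 176 CPM in the NT2/D1 mimic libraries and at 1.06, 0.654, 0.613 and 0.858 CPM in TCam-2. Its log2 fold change was 7.80 ± 0.14 (SE) with the mimic and 7.89 ± 0.13 with the control (edgeR adjusted p = 2.29e-24 and 5.99e-25), and the change of -0.09 ± 0.28 did not pass (adjusted p = 0.822). SOX17, which takes the place of SOX2 in seminoma, had no count in NT2/D1 with the mimic and 313, 321, 197 and 291 CPM in TCam-2, at least 7810-fold higher against a floor of 3 counts over the group. SOX2 lies within the transcribed region of SOX2-OT on the same strand, so reads may be shared. It is not known whether the counting used strand, which bears on the overlaps with opposite-strand genes named below.

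The germ cell genes behind SOX17 also remained with TCam-2. TFAP2C, a transcription factor of primordial germ cells, was at 949, 963, 942 and 968 CPM in TCam-2 and 41.4, 41.0, 39.7 and 40.7 CPM in NT2/D1 (log2 fold change -4.55 ± 0.06 with the mimic, -4.41 ± 0.06 with the control, change not passed with adjusted p = 0.0999, though it passed with DESeq2, upper-quartile scaling, protein-coding genes alone or a mean count of at least 100). PRDM1, which represses somatic genes in germ cells, differed by -4.50 ± 0.10 and -4.30 ± 0.11. PRAME, a cancer-testis antigen of seminoma, had no count in NT2/D1 under either transfection and a mean of 430 CPM in TCam-2 with the mimic, at least 11990-fold higher. Of 26 tested seminoma and primordial germ cell genes, 21 were higher in TCam-2 with the mimic and 5 in NT2/D1, 16 and 3 of them marked. Their median log2 fold change was -2.28 against -2.88 with the control, or -4.55 against -4.25 at a mean count of at least 100, so the order of the medians depended on the filter. Over all tested genes the corresponding medians were 0.02 and 0.02. Gene by gene the median change of these 26 was -0.19. The change passed toward TCam-2 in 9, toward NT2/D1 in 6 and in neither direction in 11, beside 25.3% and 27.9% of all tested genes. In this list 13 genes remained, 3 weakened, 2 strengthened and 3 appeared. KIT, the receptor of stem cell factor on germ cells, was among those that appeared, with 19.6 CPM in NT2/D1 and 90.2 CPM in TCam-2 with the mimic against 19.4 and 34.3 CPM with the control (-2.20 ± 0.09 and -0.82 ± 0.09). TCL1A, a cofactor of AKT kinases, had no count in NT2/D1 and fell in TCam-2 from 28.9 CPM with the control to 2.5 CPM with the mimic. NANOS3, an RNA-binding protein that protects germ cells, weakened from -5.78 ± 0.44 to -1.33 ± 0.40.

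Other genes were carried almost alone by 1 line under both transfections. BEX1 (at least 3574-fold higher), TMCO1 (at least 2898-fold) and OCIAD2 (at least 1313-fold) had no count in the TCam-2 mimic libraries, with means of 156, 126 and 57.2 CPM in NT2/D1. SP140 and HDHD5 followed at means of 65.9 and 58.8 CPM, again with no count in TCam-2. In the other direction EID1 (at least 3212-fold) and GSTA2 (at least 2976-fold) had no count in NT2/D1 and means of 115 and 107 CPM in TCam-2. GSTA2 and GSTA3 are close paralogues, and reads shared between them make their separate values uncertain. CHMP4C, an ESCRT subunit, was at least 1142-fold higher in TCam-2. The HOX cluster genes, which pattern the body axis, lay on the same side: of 29 tested, 24 were higher in TCam-2 and 1, HOXB1, in NT2/D1. Their median log2 fold change was -5.96 with the mimic and -4.57 with the control, or -5.43 and -3.89 with genes at 0 set to their bound, and -3.33 and -2.55 at a mean count of at least 100. The change passed toward TCam-2 in 6, beside 25.3% of all tested genes, and toward NT2/D1 in 0. In 23 of the 29 no change was called. HOXA13 was at 5.99, 6.83, 6.33 and 6.0 CPM in TCam-2 and at 0 in NT2/D1, and HOXB9 was at 15.3, 11.6, 12.9 and 12 CPM with the mimic and at a mean of 0.859 CPM with the control in TCam-2, while NT2/D1 stayed at or below a mean of 0.0348 CPM. HOXB9 lies inside the annotated span of HOXB7, HOXB4 inside that of HOXB3 and HOXC9 inside that of HOXC6, so reads may be shared.

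The factors of the common pluripotency programme moved toward TCam-2. With the control the 21 tested factors were split, 11 higher in NT2/D1 and 9 in TCam-2, with a median log2 fold change of 0.24. With the mimic 6 were higher in NT2/D1 and 13 in TCam-2, with a median of -1.20. The change of the line difference passed toward TCam-2 in 16 of 21 and toward NT2/D1 in 2, beside 25.3% and 27.9% of all tested genes. NANOG was at 62.9, 59.8, 65.2 and 71.4 CPM in NT2/D1 with the mimic and at 805, 907, 989 and 940 CPM in TCam-2. With the control the means were 247 and 570 CPM. The line difference of NANOG thus strengthened from -1.21 ± 0.07 to -3.81 ± 0.08 (change -2.60 ± 0.10, edgeR adjusted p = 2.39e-16), with NT2/D1 lower and TCam-2 higher than with the control. POU5F1 was at 456, 524, 435 and 452 CPM in NT2/D1 and 2610, 2490, 2130 and 2430 CPM in TCam-2, against means of 1701 and 2903 CPM with the control. Its difference appeared, from -0.77 ± 0.07 to -2.37 ± 0.08. POU5F1B and POU5F1P3 are near copies of POU5F1 and may share its reads. TDGF1, the nodal co-receptor, moved from 0.24 ± 0.06 to -2.12 ± 0.07, with 45.1 CPM in NT2/D1 and 196 CPM in TCam-2. Its region overlaps the annotated span of LRRC2.

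Other members of this programme narrowed, changed sides or widened. SALL4, a zinc finger partner of OCT4, was at 118 and 125 CPM with the mimic (log2 fold change -0.08 ± 0.06, adjusted p = 0.24), against 208 and 112 CPM with the control (0.89 ± 0.06). DPPA4 went from 1.80 ± 0.07 to 0.07 ± 0.06, and the repressor NR6A1 vanished from 2.53 ± 0.06 to 0.21 ± 0.06. The RNA-binding protein LIN28A, which blocks let-7 maturation, kept a smaller NT2/D1 excess (1.81 ± 0.06 to 0.64 ± 0.06), while its paralogue LIN28B moved from -0.28 ± 0.08 to -1.88 ± 0.09. PRDM14 (1.11 ± 0.08 to -0.92 ± 0.08) and TRIM71 (0.53 ± 0.06 to -1.20 ± 0.06), the latter with the 2 sites printed above, changed sides without becoming marked. The naive-state factors TFCP2L1 (-5.49 ± 0.08 to -7.16 ± 0.09) and KLF4 (-3.14 ± 0.09 to -4.51 ± 0.10) remained with TCam-2 and widened. ZFP42 went the other way and remained with NT2/D1, at 7.75, 7.78, 7.0 and 8.50 CPM against 0 in TCam-2 (at least 178-fold). UTF1 was uneven among the TCam-2 mimic libraries, at 96.2, 103, 41.3 and 92.2 CPM, and remained higher there than in NT2/D1, at 5.90, 4.43, 2.65 and 4.79 CPM.

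**Figure D3:**
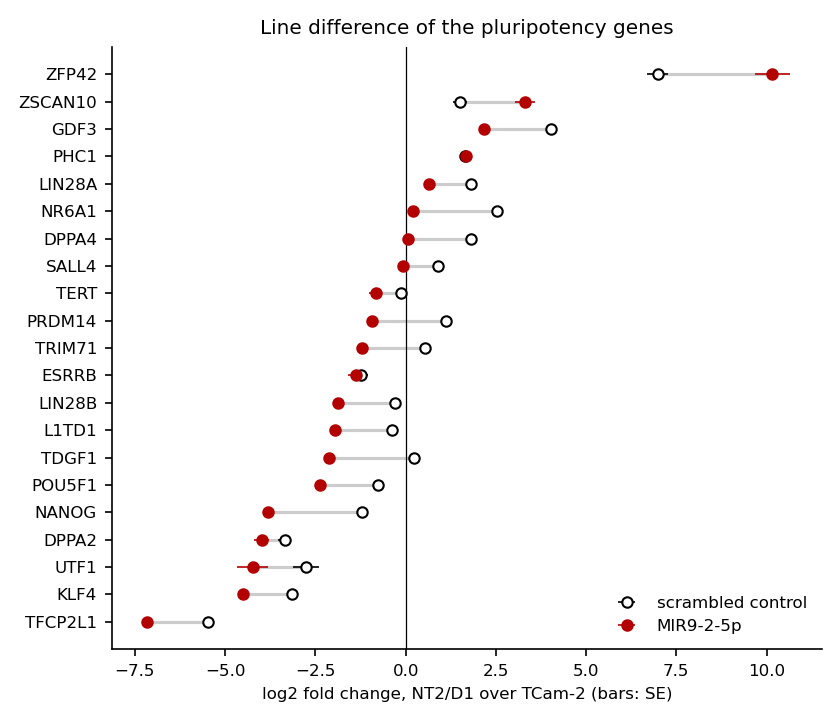
Log2 fold change of NT2/D1 over TCam-2 for 21 pluripotency genes, with the scrambled control (open) and with MIR9-2-5p (filled); bars are the SE of the fit. Of the 21, 16 changed toward TCam-2, NANOG from -1.21 to -3.81 and POU5F1 from -0.77 to -2.37, while ZFP42 and ZSCAN10 lay further toward NT2/D1.

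Of the EC and primed pluripotency genes, most remained with NT2/D1 and several narrowed. Among 30 tested, 23 were higher in NT2/D1 with the mimic and 4 in TCam-2, 17 and 4 marked, and the median fell from 2.86 with the control to 2.11. The change passed toward TCam-2 in 19 and toward NT2/D1 in 2, beside 25.3% and 27.9% of all tested genes. DNMT3B, the de novo DNA methyltransferase, stayed marked at 2.00 ± 0.07 after 2.76 ± 0.07, with 222 CPM in NT2/D1 and 55.2 CPM in TCam-2. SFRP2, a secreted Wnt antagonist, was at 158, 153, 147 and 152 CPM in NT2/D1 and at or under 0.0681 CPM in each TCam-2 library. FGF4 weakened from 5.57 ± 0.16 to 1.88 ± 0.14. OTX2, a factor of primed pluripotency and forebrain, vanished from 2.37 ± 0.08 to 0.44 ± 0.07, with 44.2, 42.7, 48.6 and 46.0 CPM in NT2/D1 and 35.3, 34.5, 33.4 and 30.6 CPM in TCam-2, still without overlap. VRTN, which holds 1 of the printed sites, vanished from 2.87 ± 0.11 to 0.90 ± 0.11, and FOXH1, the nodal effector, appeared with TCam-2 (0.48 ± 0.12 to -2.39 ± 0.14). FOXH1 overlaps KIFC2 on the other strand, which was also higher in TCam-2 (48.4 against 5.68 CPM). CDH1 and DNMT3L, also in this list, remained strongly with TCam-2.

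For transcripts linked to the endogenous retrovirus HERV-H, which are markers of human pluripotent cells, the median lost its NT2/D1 excess. Single members differed: 4 remained, 3 vanished and 2 appeared. Of 10 tested, 7 were higher in NT2/D1 with the control and 4 with the mimic. The change passed toward TCam-2 in 9, beside 25.3% of all tested genes. Their median was 1.98 with the control and -0.87 with the mimic. A fit of protein-coding genes alone leaves out ESRG, LINC00458, LINC-ROR and LNCPRESS1, which are non-coding. The medians of the members it kept were -0.82 and -2.50, so they describe other genes. The medians were 0.80 and -2.42 at a mean count of at least 100. ESRG was at 299, 275, 309 and 299 CPM in NT2/D1 with the mimic and 223, 210, 239 and 223 CPM in TCam-2, against means of 1683 and 162 CPM with the control. Its line difference vanished, from 3.38 ± 0.07 to 0.40 ± 0.06. LINC00458 vanished as well, from 4.46 ± 0.29 to -0.39 ± 0.28, while LINC-ROR remained, at 1.70 CPM against 0.0456 CPM. LNCPRESS1 remained with TCam-2 and widened (-2.62 ± 0.35 to -6.46 ± 0.37).

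Genes of epithelial junctions remained with TCam-2. Of 37 tested, 30 were higher there with the mimic and 6 in NT2/D1, 25 and 1 marked, with a median of -3.84 (-3.35 with the control). E-cadherin, CDH1, was at 4.73, 4.00, 6.22 and 4.00 CPM in NT2/D1 and 328, 346, 354 and 344 CPM in TCam-2. Its difference widened from -4.81 ± 0.09 to -6.17 ± 0.11. The splicing regulator ESRP1 widened from -4.00 ± 0.08 to -7.03 ± 0.10, and the cell adhesion molecule EPCAM from -3.38 ± 0.06 to -4.42 ± 0.06. GRHL2 (99.8 against 0.337 CPM) and OVOL2 (25.9 against 0.0592 CPM), both factors that maintain epithelium, also remained. The tight junction protein CLDN4 narrowed from -6.82 ± 0.15 to -2.08 ± 0.11. The keratins of simple epithelia left this pattern. KRT19 was at 133, 151, 123 and 132 CPM in NT2/D1 and 82.3, 76.1, 61.6 and 76.4 CPM in TCam-2 with the mimic, against means of 24.0 and 353 CPM with the control, and its difference vanished (-3.87 ± 0.13 to 0.86 ± 0.12). KRT8 changed sides, from -0.92 ± 0.08 to 1.43 ± 0.08, without a marked difference, and its span overlaps that of KRT18.

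Mesenchymal, matrix and contractile genes moved toward NT2/D1. Of 58 tested, 48 were higher in NT2/D1 with the mimic and 7 in TCam-2, 36 and 1 marked, against 35 and 18 with the control, 18 and 9 marked. The median rose from 0.81 to 2.74. The change passed toward NT2/D1 in 44 and toward TCam-2 in 3, beside 27.9% and 25.3% of all tested genes. In this list 18 genes remained, 10 appeared, 9 strengthened, 5 vanished and 3 weakened. Vimentin, VIM, an intermediate filament protein, was at 827, 683, 870 and 872 CPM in NT2/D1 and 28.0, 32.0, 34.5 and 34.6 CPM in TCam-2 with the mimic, against means of 246 and 153 CPM with the control. It was higher than with the control in NT2/D1 and lower in TCam-2, and its line difference appeared (0.69 ± 0.08 to 4.66 ± 0.09, change 3.97 ± 0.12, edgeR adjusted p = 2.24e-18). Annexin A1, ANXA1, a phospholipid-binding protein, likewise appeared, with 690, 576, 711 and 685 CPM against 22.9, 20.9, 30.4 and 26.0 CPM (0.27 ± 0.09 to 4.74 ± 0.10). Fibronectin, FN1, appeared at 2.13 ± 0.07 after 0.84 ± 0.07. TIMP3, an inhibitor of matrix proteases, strengthened from 1.17 ± 0.09 to 5.33 ± 0.10, and the proteoglycan BGN from 1.18 ± 0.29 to 6.0 ± 0.24. TIMP3 lies inside SYN3 and VIM overlaps VIM-AS1.

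Some of these genes differed before and after. Caveolin 1, CAV1, remained with NT2/D1 and widened from 3.27 ± 0.10 to 7.49 ± 0.11 (361 against 2.01 CPM). COL1A1, the main fibrillar collagen, did so from 3.61 ± 0.11 to 4.86 ± 0.11. The repressors of E-cadherin ZEB1 and ZEB2 were carried by NT2/D1 under both transfections. ZEB2 was at 108, 103, 118 and 102 CPM there with the mimic and had 1 TCam-2 library above 0, at 0.0572 CPM. ZEB1 was at 17.7, 15.5, 16.3 and 17.8 CPM, again with 1 TCam-2 library above 0. COL3A1 (-4.95 ± 0.15 to -0.59 ± 0.12) and the galectin LGALS1 (-4.54 ± 0.14 to -0.32 ± 0.11) were TCam-2 genes with the control and vanished. S100A6 vanished at low levels, with 0.150 and 0.229 CPM with the mimic after 0.0379 and 9.10 CPM. The fibroblast marker sum given above moved with this list, and 6 of its 8 markers are members of it (COL1A1, COL1A2, COL3A1, DCN, LUM and POSTN). In TCam-2 it was 191 to 211 CPM with the mimic and 471 to 491 CPM with the control, and in NT2/D1 604 to 692 and 514 to 606 CPM. Its part in the list's change was not tested.

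**Figure D4:**
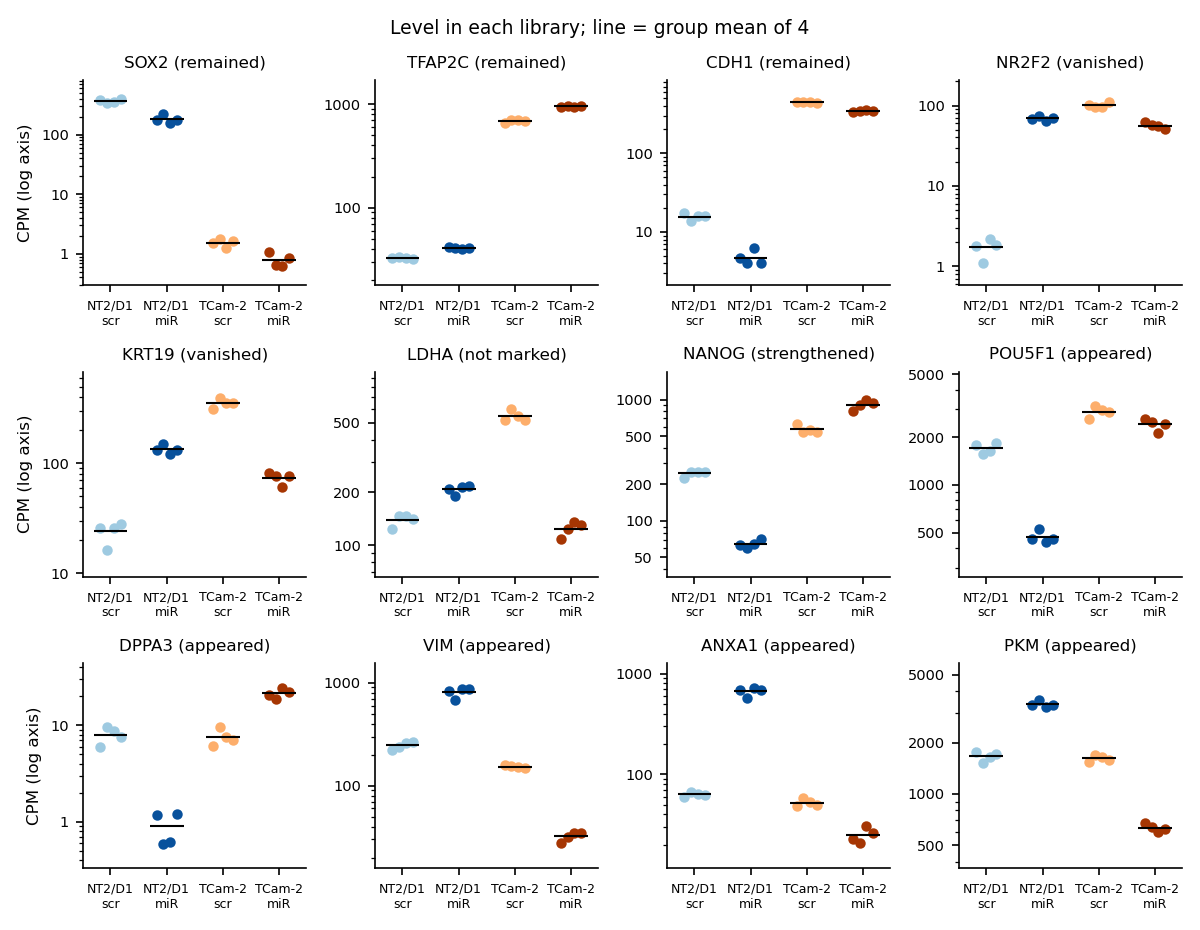
CPM of 12 genes in each of the 16 libraries on a log axis, in the order NT2/D1 control, NT2/D1 mimic, TCam-2 control and TCam-2 mimic; the line is the mean of 4 and the class stands beside the gene name. SOX2, TFAP2C and CDH1 kept their line difference, NR2F2 and KRT19 came to within 2-fold, NANOG drew apart, and VIM, ANXA1, PKM, POU5F1 and DPPA3 separated with the mimic.

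Several developmental regulators that were at least 4-fold higher in TCam-2 with the control differed less between the lines with the mimic. NR2F2 (COUP-TFII), an orphan nuclear receptor of mesoderm and differentiating cells, was at 68.9, 74.6, 63.3 and 70.9 CPM in NT2/D1 and 61.8, 56.5, 55.4 and 51.0 CPM in TCam-2 with the mimic, against means of 1.74 and 101 CPM with the control. The line difference went from -5.83 ± 0.12 to 0.30 ± 0.09 (change 6.14 ± 0.15, edgeR adjusted p = 8.91e-20), and the groups did not overlap under either transfection. NR2F2 shares its region with NR2F2-AS1. Its paralogue NR2F1 vanished too, from at least 19.1-fold higher in TCam-2 with the control to 1.11 against 0.797 CPM. HAND1, a factor of trophoblast and heart, went from -3.24 ± 0.15 to 0.63 ± 0.12, and GATA6, a factor of primitive endoderm, from -4.17 ± 0.21 to -0.37 ± 0.17. The ephrin ligand EFNA1 vanished from -3.62 ± 0.13 to -0.71 ± 0.11, and TBX3 weakened from -5.21 ± 0.15 to -1.82 ± 0.11. Of 26 tested endoderm and trophoblast genes, 16 were higher in TCam-2 with the mimic and 7 in NT2/D1, 12 and 3 marked. The change passed toward NT2/D1 in 12 and toward TCam-2 in 2, beside 27.9% and 25.3% of all tested genes. Their median moved from -3.79 to -1.64. GATA4 (80.3 against 0.381 CPM), CDX2 (9.06 against 0.0435 CPM), VGLL1 and the hormone subunit gene CGA remained with TCam-2.

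Line differences also changed in genes of inflammation, interferon response and growth arrest. Of 22 tested inflammation and immune signalling genes, 17 were higher in NT2/D1 with the mimic and 4 in TCam-2, with a median of 2.43 after 0.73. Among genes with a mean count of at least 100 these medians were 0.64 and -0.32. The change passed toward NT2/D1 in 12 and toward TCam-2 in 0, beside 27.9% and 25.3% of all tested genes. PLAUR, the urokinase receptor, was at 49.4, 54.2, 48.6 and 48.0 CPM in NT2/D1 and 0.856, 1.37, 0.953 and 1.20 CPM in TCam-2 (0.83 ± 0.12 to 5.51 ± 0.14). The chemokine receptor CCR7 had no count in TCam-2 with the mimic and 3.16 CPM in NT2/D1, at least 72.5-fold higher. The chemokine CXCL1 was at 10.7 CPM in NT2/D1 with the mimic, 0.576 CPM with the control, and at or near 0 in TCam-2. Blood and immune markers were at the low sums given above, so these transcripts were not accompanied by leukocyte markers. Of 36 interferon response and HLA class I genes, 24 were higher in NT2/D1, 17 of them marked, and 7 in TCam-2, 1 of them marked, with a median of 1.64 after 0.33. The change passed toward NT2/D1 in 13 of the 36, toward TCam-2 in 6 and in neither direction in 17, beside 27.9% and 25.3% of all tested genes. MX1, an interferon-induced GTPase, was at 28.8, 30, 30 and 31.2 CPM against 1.41, 1.96, 2.11 and 1.37 CPM and appeared (-0.18 ± 0.11 to 4.14 ± 0.13), as did GBP3 (9.09 against 0.160 CPM), IFI6 (21.0 against 1.37 CPM) and the peptide transporter TAP1 (10.7 against 1.93 CPM). OAS3 remained and widened from 2.71 ± 0.16 to 6.2 ± 0.16.

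Of 26 p53 targets and CDK inhibitors, 14 were higher in NT2/D1 and 8 in TCam-2 with the mimic. The change passed toward NT2/D1 in 16 and toward TCam-2 in 1, beside 27.9% and 25.3% of all tested genes. CDKN1A (p21), which halts the cell cycle, was at 592, 646, 566 and 594 CPM in NT2/D1 and 59.6, 54.0, 46.1 and 48.3 CPM in TCam-2, against means of 64.0 and 37.0 CPM with the control. Its difference appeared (0.79 ± 0.09 to 3.53 ± 0.09). CDKN2B (p15) strengthened from 1.33 ± 0.15 to 4.51 ± 0.14. The death receptor FAS remained with no change called (3.25 ± 0.21 and 3.75 ± 0.15). FAS overlaps ACTA2 (16.2 CPM in NT2/D1 and 0.160 CPM in TCam-2) and STAMBPL1 (4.57 and 0.494 CPM). Of 22 cyclins, cyclin-dependent kinases and related regulators, 12 were higher in NT2/D1 and 7 in TCam-2, beside 40.6% and 38.6% of all tested genes. The largest differences were those of cyclin D1, CCND1 (745, 782, 750 and 746 against 17.1, 16.7, 14.7 and 16.1 CPM), and its partner CDK6 (180 against 2.14 CPM), and both remained and widened. The 40 tested DNA replication genes differed less: 16 were higher in NT2/D1 and 10 in TCam-2 with the mimic, and the largest of these differences, that of GINS3, was -1.64 ± 0.09. Their median was 0.05, -0.01 under upper-quartile scaling and -0.04 with protein-coding genes alone. ORC6 of the origin recognition complex was at 71.2 and 166 CPM and RFC3 of the clamp loader at 54.0 and 21.6 CPM.

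Genes of glycolysis and lactate handling were evenly split between the lines with the control and leaned to NT2/D1 with the mimic. Of 25 tested, 10 were higher in each line with the control (median 0.03), while 16 were higher in NT2/D1 and 6 in TCam-2 with the mimic (median 0.67). The change passed toward NT2/D1 in 17 and toward TCam-2 in 4, beside 27.9% and 25.3% of all tested genes. Pyruvate kinase, PKM, was at 3340, 3580, 3260 and 3330 CPM in NT2/D1 and 672, 637, 600 and 621 CPM in TCam-2 with the mimic, against means of 1665 and 1616 CPM with the control (0.04 ± 0.06 to 2.42 ± 0.06). It was the only gene of the list with a marked difference with the mimic. Lactate dehydrogenase A, LDHA, changed sides from -1.97 ± 0.08 to 0.74 ± 0.08, and the lactate exporter SLC16A3 vanished from -4.71 ± 0.20 to 0.67 ± 0.17. GAPDH, often used as a reference gene, was at 7285 CPM in NT2/D1 and 2019 CPM in TCam-2 with the mimic (1.85 ± 0.06), and its difference was 0.96 ± 0.05 with the control. The glucose transporter SLC2A3 moved the other way, from 0.44 ± 0.05 to -1.03 ± 0.05. The media of the 2 lines differ, and the part of this in the values was not tested.

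Direct reversal was rare, at 24 genes or 0.123% of those tested, 14 ending higher in NT2/D1 and 10 in TCam-2. TRIM63, a muscle ubiquitin ligase, was at 14, 16.1, 13.5 and 15.1 CPM in NT2/D1 and 0, 0.0594, 0.0681 and 0.172 CPM in TCam-2 with the mimic, against means of 0.108 and 0.608 CPM with the control (-2.45 ± 0.61 to 7.53 ± 0.40). PTGES, the inducible prostaglandin E synthase, was at 5.95, 6.21, 8.09 and 6.88 CPM in NT2/D1 and 0.806, 0.475, 0.545 and 0.801 CPM in TCam-2, against means of 2.41 and 10.9 CPM with the control (-2.19 ± 0.17 to 3.34 ± 0.22). CRIP2 (-2.44 ± 0.15 to 3.20 ± 0.16) and the splicing regulator MBNL2 (-2.75 ± 0.19 to 2.53 ± 0.15) reversed in the same direction. EGFL6, a secreted growth factor-like protein, went from 3.38 ± 0.32 to -4.64 ± 0.26, with 0.286 CPM in NT2/D1 and 7.29 CPM in TCam-2 with the mimic, and the homeobox gene MKX from 2.74 ± 0.32 to -2.69 ± 0.25. ONECUT2, a known miR-9 target with 8 full seed sites, passed from 2.73 ± 0.26 to -1.71 ± 0.23 and so changed sides without a marked difference at the end. It was at 0.731, 0.918, 1.30 and 1.25 CPM in NT2/D1 and 3.48, 3.92, 3.40 and 3.15 CPM in TCam-2 with the mimic, and at means of 3.93 and 0.603 CPM with the control.

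Around PTGES, the totals of the prostaglandin and arachidonic acid genes were equal under both transfections, while single genes changed. Of 24 tested, 13 were higher in NT2/D1 and 7 in TCam-2 under each transfection, and 8 remained. The change passed toward NT2/D1 in 8 and toward TCam-2 in 5, shares near the 27.9% and 25.3% of all tested genes. The oxidoreductase GPX1 was at 508 CPM in NT2/D1 and 0.746 CPM in TCam-2, PTGS1 at 1.28 and 0.0566 CPM, and HPGD, which degrades prostaglandins, at 1.32 and 56.0 CPM. PTGER4, a receptor for prostaglandin E2, strengthened with NT2/D1, from 0.190 and 0.0581 CPM to 2.56 and 0.0319 CPM, though its change did not pass without TCam-2 control replicate 1.

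Of the genes that protect the germline genome, 13 of 23 tested piRNA and meiosis genes were higher in TCam-2 with the mimic and 6 in NT2/D1, with a median of -1.08 after -0.20 (-0.67 after -0.05 at a mean count of at least 100). Gene by gene the median change was 0.03. It passed toward NT2/D1 in 5, toward TCam-2 in 9 and in neither direction in 9, beside 27.9% and 25.3% of all tested genes. PIWIL2, which binds piRNAs, stood with NT2/D1 (74.4 against 0.324 CPM) and did not change (change 0.04 ± 0.32, adjusted p = 0.959). TDRD9 and RNF17, partners of PIWI proteins, remained with TCam-2 but at much lower levels there, 0.900 and 0.750 CPM with the mimic after 20.7 and 18.4 CPM with the control. DPPA3 (STELLA), which in the mouse embryo shields imprints from demethylation, was level with the control (7.94 and 7.58 CPM). With the mimic it was at 1.17, 0.594, 0.609 and 1.21 CPM in NT2/D1 and 20.4, 18.5, 24.4 and 22.3 CPM in TCam-2 (0.06 ± 0.16 to -4.57 ± 0.20). Among 18 DNA methylation genes, 9 were higher in TCam-2 and 6 in NT2/D1, beside 38.6% and 40.6% of all tested genes. The cofactor DNMT3L remained a TCam-2 gene (225 against 0.124 CPM), the demethylases TET1 (-2.44 ± 0.10) and TET2 (-3.23 ± 0.08) were higher in TCam-2, and UHRF1, which recruits DNMT1, strengthened with NT2/D1 (1.40 ± 0.11 to 2.86 ± 0.11). Of 21 imprinted genes, 13 were higher in NT2/D1 and 6 in TCam-2. IGF2 was at 6.04, 6.32, 5.48 and 3.81 CPM in NT2/D1 and 0 in TCam-2, at least 124-fold higher, and PHLDA2 strengthened from 1.38 ± 0.24 to 3.80 ± 0.24.

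Of 35 nodal, activin and BMP genes, 14 were higher in NT2/D1 with the mimic and 13 in TCam-2, shares near those of all tested genes (40.6% and 38.6%). GREM1, a secreted BMP antagonist, was at 136, 136, 149 and 147 CPM in NT2/D1 and had 1 TCam-2 library above 0, and NOG, another, was at 15.1 against 0.122 CPM. Both remained. INHBA, an activin subunit whose 3′UTR holds a printed site, strengthened with NT2/D1 (1.24 ± 0.26 to 5.85 ± 0.26), while INHBE vanished (3.92 ± 0.29 to -0.14 ± 0.29). GDF3 remained with NT2/D1 and narrowed (4.04 ± 0.07 to 2.18 ± 0.07). Of 38 receptor tyrosine kinases and ligands, 20 were higher in NT2/D1 and 16 in TCam-2, beside the same 40.6% and 38.6%. The largest difference was that of the receptor AXL, at 216, 211, 214 and 205 CPM against 0.604, 0.951, 0.885 and 0.686 CPM. Its difference widened from 5.79 ± 0.14 to 8.09 ± 0.12.

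Of 29 neural genes, 22 were higher in NT2/D1, 18 of them marked, and 7 in TCam-2, 5 of them marked, with a median of 3.19 after 2.21, or 3.27 after 3.80 at a mean count of at least 100. Gene by gene the median change was -0.07. It passed toward NT2/D1 in 6, toward TCam-2 in 7 and in neither direction in 16, shares near the 27.9% and 25.3% of all tested genes. CRABP1, a retinoic acid carrier, was at 46.4, 41.5, 41.9 and 48.9 CPM in NT2/D1 with 1 TCam-2 library above 0, and PTPRZ1, a receptor phosphatase, at 112 against 0.160 CPM. SNAP25, a SNARE protein of synaptic exocytosis, appeared at 5.32 against 0.505 CPM. Of 21 mesoderm genes, 12 were higher in TCam-2 and 6 in NT2/D1, beside 38.6% and 40.6% of all tested genes. TBXT (brachyury) remained with TCam-2 at 2.79 against 0.0109 CPM, and NKX2-5, a heart factor, appeared with NT2/D1 (-0.61 ± 0.18 to 4.8 ± 0.25). Of 39 nuclear receptors, 22 were higher in NT2/D1 and 12 in TCam-2, against 14 in each with the control.

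Among 12 genes of chromosome 12p that the study names, several of them for their response to the mimic in these libraries, 5 were higher in each line with the mimic, with a median of 0.08 after 0.38. The change passed toward TCam-2 in 7 and toward NT2/D1 in 2, which is not independent evidence of a direction for the arm. BCAT1 remained with NT2/D1 (1080 against 24.5 CPM), CCND2 was at 303 and 517 CPM, and SINHCAF, at 508 and 490 CPM, no longer differed (0.05 ± 0.07, adjusted p = 0.503, after 1.33 ± 0.07). Of 14 LIN28 and let-7 genes, HMGA2 and IGF2 alone were marked, both with NT2/D1. HMGA2, a chromatin protein of embryonic cells, was at 827, 802, 879 and 860 CPM against 20.9, 19.5, 21.2 and 24.0 CPM, with a change from 3.96 ± 0.08 to 5.30 ± 0.08. Of 15 genes known as miR-9 targets, 6 were higher in NT2/D1 and 7 in TCam-2, beside 40.6% and 38.6% of all tested genes. Their median was -0.45, and -0.42 with the control (-0.20 and -0.50 at a mean count of at least 100). Of 79 cytosolic ribosomal protein genes, 56 were higher in TCam-2 and 9 in NT2/D1, with a median of -0.56 after -0.72. RPL30 (936 against 224 CPM) and RPL8 (4506 against 971 CPM) were the 2 marked ones. Processed copies of these genes are many, so single values are uncertain.

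**Figure D5:**
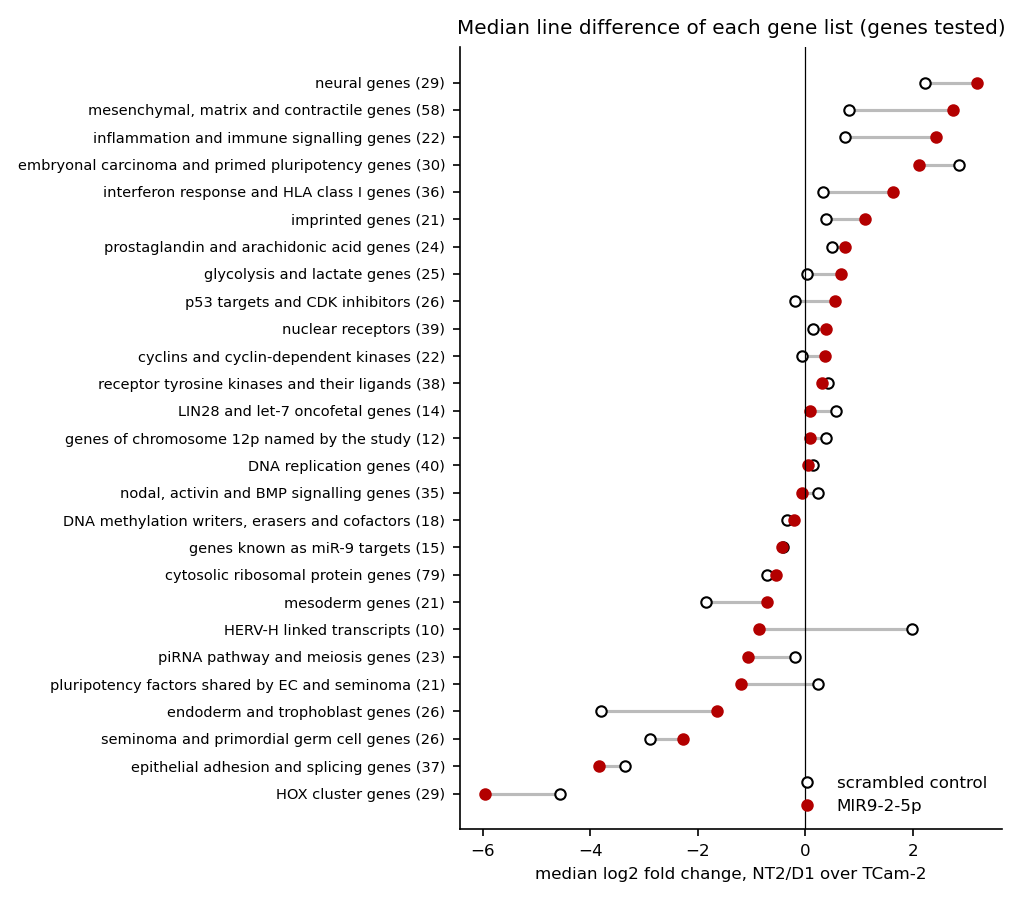
Median log2 fold change of NT2/D1 over TCam-2 for each of 27 gene lists, with the scrambled control (open) and with MIR9-2-5p (filled); the number of tested genes stands in brackets. Mesenchymal genes (0.81 to 2.74) and inflammation genes (0.73 to 2.43, and -0.32 to 0.64 at a mean count of at least 100) moved toward NT2/D1. The medians of HERV-H linked transcripts (1.98 to -0.87, and -0.82 to -2.50 for the protein-coding members alone) and shared pluripotency factors (0.24 to -1.20) crossed to TCam-2.

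Genes that vanished and genes that appeared differed in kind by direction. Differences higher in NT2/D1 that vanished were protein-coding in 55.8% of 265 genes and those appearing higher in TCam-2 in 50.7% of 302. In the opposite direction, vanished TCam-2 differences were protein-coding in 83.7% of 215 and appearing NT2/D1 differences in 87.7% of 325, while 76.8% of all tested genes were. In the vanished NT2/D1 genes the median log2 response to the mimic was -0.94 in NT2/D1 and 1.48 in TCam-2. In the NT2/D1 genes that appeared it was 1.5 and -1.08. The full seed site was present in 15 of 148 vanished NT2/D1 genes with a 3′UTR (10.1%), 7 of 179 vanished TCam-2 genes (3.91%) and 10 of 151 TCam-2 genes that appeared (6.62%), beside 4.76% of all and 2.11% of the NT2/D1 genes that appeared. The median 3′UTR lengths were 1602, 947, 1207, 1307 and 1122 bases in the same order, and their part in the site shares was not tested.

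Along the chromosomes, protein-coding genes of at least 1 CPM on chromosome 8 leaned to TCam-2 under both transfections, with a median of -0.68 with the mimic and -0.80 with the control, beside 0.11 and 0.00 over all 14518 such genes. Of its 504 genes, 15.9% were marked higher in TCam-2, beside 8.88% of all. On chromosome X, 21.0% of 547 genes were marked higher in NT2/D1, beside 13.8% of all. Chromosome 21 leaned to NT2/D1 with a median of 0.87 after 0.23. The 233 zinc finger genes of chromosome 19 moved toward TCam-2, with a median of -0.30 after 0.08. Their change passed toward TCam-2 in 100 and toward NT2/D1 in 30, beside 25.3% and 27.9% of all tested genes. Copy number was not measured in these libraries.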

How the data were processed

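Total RNA from 16 transfected samples was sequenced. Per the labels and the submitters' processing notes, the authors trimmed reads (Trim Galore, cutadapt, FastQC), aligned them to GRCh38 with STAR and deposited the whole-number gene counts that featureCounts returned. Which annotation release and strand option they used is not stated in the sources used here. Of 58735 gene IDs, 58207 matched GENCODE 44 for names, spans and 3′UTRs, and miRNA sequences came from RefSeq. Counts were tested with edgeR 4.0.16 in R 4.3.3 (TMM, filterByExpr with a minimum count of 10, robust quasi-likelihood F test, 4 groups in 1 fit, Benjamini-Hochberg over 19576 genes), and the script was checked on simulated counts. CPM are counts over the library totals of the tested genes scaled by TMM factors. Before filtering and scaling, the library totals were 14167738 to 22427162. Library shares used two-sided exact permutation tests, and intervals or floors (3 counts over a group) cover counting error only. Replicate pairs differed beyond sampling noise (chi-square per degree of freedom 1.98 to 19.2), so each library counted once.

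A total of 142 genes were named by rule: per gene list the 2 tested members with the largest difference with the mimic and the 2 with the largest change, genes the study names, the 8 coding genes highest in each line, and 4 per direction of the vanished, appeared and reversed classes. A further 34 were added after their values were seen. Not every gene so chosen is reported here. The comparison, lists and rules were chosen with earlier results of these data known. Alternatives covered DESeq2 1.42.0, scaling, filters, separate fits, fold limits, a replicate block and leaving out each library. Lists of 27 gene groups were described by counts and medians, with no set test.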

Additional observations from a re-analysis of the deposited data

Results flagged for a closer look

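The line difference changed by more than 16-fold in 12 of 176 named genes (edgeR glmTreat against 16-fold, adjusted p under 0.05), 11 toward NT2/D1 and 1 toward TCam-2. The limit first set was 4-fold, which 64 genes passed, 44 toward NT2/D1 and 20 toward TCam-2. It was raised after these counts were seen. On the log2 scale the changes were 9.98 for TRIM63, 7.46 for KLHL30, 7.20 for OLR1, 6.88 for F2RL2, 6.14 for NR2F2, 5.64 for CRIP2, 5.52 for PTGES, 5.41 for NKX2-5, 5.38 for SLC16A3, 5.29 for MBNL2, 4.73 for KRT19 and -8.01 for EGFL6. OLR1, a scavenger receptor, was at 3.36 and 2.52 CPM in NT2/D1 and TCam-2 with the mimic and at 0.0672 and 8.07 CPM with the control. F2RL2, a thrombin receptor gene that lies inside IQGAP2 on the other strand, was at 13.5 and 0.0521 CPM with the mimic and at 2.58 and 1.45 CPM with the control. KLHL30 was at 9.72 and 0.0807 CPM, after 0.83 and 1.45 CPM.

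A single mimic library stood apart from the other 3 of its group in 10 of 273 groups examined, where chance gives about 5%. In NT2/D1 these were CCND1 at 782 CPM and TEX15 at 9.07 CPM in replicate 2, and in replicate 3 GBP3 at 11, INHBE at 2.00, MAGEL2 at 9.26, RORB at 1.65 and TIMP3 at 95.2 CPM. In TCam-2 they were GATA6 at 4.03 CPM in replicate 1, and PRDM1 at 102 and TERT at 5.24 CPM in replicate 3. In each case the direction of the line difference was the same without that library.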

How the results depend on the processing

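Of 12994 differences and changes of the named genes under the alternatives, 12740 were counted as kept, 198 lost the call and 56 gained it. A reversal with a call in either fit occurred in 0. Values that changed sign without a call in either fit counted as kept, as did DESeq2 values without an adjusted p. With each treatment fitted alone the change was taken from the main fit, so it was not recomputed there. Fits with the replicate number as a replicate block gave 7941 and 7507 genes higher in NT2/D1 and TCam-2 with the mimic, 473 vanished and 621 appeared. The numbers did not pair the libraries (r of same-numbered libraries -0.196 to 0.165).

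Values that moved were these. With DESeq2, 47 genes reversed and the median absolute difference with the mimic was 1.01. With no filter on low counts, 50 reversed and the medians were 1.30 with the mimic and 1.15 with the control. With a mean count of at least 100, 5101 and 4948 genes were higher in NT2/D1 and TCam-2 with the mimic and 4998 and 4901 with the control, 1319 remained, 239 weakened, 161 vanished, 374 strengthened, 246 appeared and 3 reversed (medians 0.75 and 0.70). Fewer genes were then tested. With each treatment fitted alone 13 reversed (medians 0.93 and 0.85), and protein-coding genes alone gave medians of 0.87 and 0.82. With 2-fold as the mark, 6278 remained, 5 weakened, 1812 vanished, 24 strengthened, 2253 appeared and 206 reversed, and with 8-fold 2149 remained, 152 vanished, 187 appeared and 2 reversed. Against a 2-fold minimum in the test, 4049 and 3636 genes were higher with the mimic, 3712 and 3349 with the control, and 1441 and 1241 changed toward NT2/D1 and TCam-2, with 134 weakened and 241 strengthened. The order remained, appeared, vanished held under each of these. The cause of the moves was not otherwise tested.

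Leaving out 1 library gave 7915 to 8181 and 7409 to 7790 genes higher with the mimic, 7489 to 7866 and 7359 to 7659 with the control, and 5136 to 5577 and 4716 to 4909 changed. It gave 3523 to 3565 remained, 471 to 551 vanished, 618 to 661 appeared, 386 to 421 weakened, 555 to 606 strengthened and 20 to 30 reversed, with medians of 0.97 to 0.98 and 0.90 to 0.93. The low-count filter passes more genes with a group of 3. Upper-quartile scaling moved the median of all genes with the mimic by -0.056 and RLE by -0.0079. With the control this median moved the other way under upper-quartile scaling, from 0.015 to 0.085. The line difference with the mimic then leaned to TCam-2 in number, with 7667 genes higher in NT2/D1 and 7878 in TCam-2. The changes leaned to TCam-2 as well, at 4686 toward NT2/D1 and 5872 toward TCam-2.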

Other observations

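Some genes came closer between the lines, lower in NT2/D1 and higher in TCam-2 than with the control. SALL3, a zinc finger gene of the early embryo, was at 32.9 CPM in NT2/D1 and 23.3 CPM in TCam-2 with the mimic, after 92.7 and 3.52 CPM with the control. PCDH8, a protocadherin, was at 2.04 and 1.81 CPM after 10.2 and 0.521 CPM, and CR2, a complement receptor gene, at 0.849 and 0.503 CPM after 5.35 and 0.178 CPM. Others were near level with the control and higher in TCam-2 with the mimic. ERMN, a cytoskeletal protein gene of oligodendrocytes, was at 0.200 CPM in NT2/D1 and 7.47 CPM in TCam-2 with the mimic after 0.570 and 1.03 CPM with the control, and ARHGAP9, which overlaps MARS1 on the other strand, at 0.320 and 9.55 CPM after 2.08 and 1.56 CPM. FSTL5, a follistatin-like gene, was at 4.78, 6.97, 7.0 and 6.51 CPM in NT2/D1 with the mimic and at or under 0.273 CPM in each library of the other 3 groups.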
